A study of Caenorhabditis elegans with 24 samples.

Results

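The lysozyme and saposin-like genes of Caenorhabditis elegans were taken as every gene in the deposited count files whose WormBase symbol is lys, ilys or spp followed by a number. The rule found 46 of 19669 genes, of which 10 were lys, 5 ilys and 31 spp genes. The rule itself used no measured value, but the members were chosen with earlier results of these data known. They were followed in adult worms by mRNA sequencing and by ribosome profiling, which sequences the stretches of mRNA that ribosomes cover (footprints). One strain lacked metl-5 (the labels give a deletion in C38D4.9), and the other was wild type (WT). Each strain was sampled at 37 °C and at 20 °C, so that the 8 groups were metl-5 37 °C, WT 37 °C, metl-5 20 °C and WT 20 °C in both assays, with 3 libraries each and 24 in all. The labels name the whole adult worm as the source, and no source used here gives the length of the 37 °C exposure, the age of the adults, their food or the number of mutant lines. Since it is unknown whether replicates were separate cultures, p-values measure only the spread between these samples, which may be technical.

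As background, lys genes encode protist-type lysozymes and ilys genes invertebrate-type lysozymes, enzymes that cut the peptidoglycan of bacterial cell walls. The spp genes encode small proteins with a saposin-type fold, and some of them, the caenopores, open pores in bacterial membranes. C. elegans feeds on bacteria, and many of these proteins are made by its intestine, where they serve both in digestion and in defence against ingested microbes. The product of metl-5 is a ribosomal RNA methyltransferase, and 37 °C far exceeds the range in which this animal grows.

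An mRNA library held 15522050 to 17239906 gene counts. A footprint library held 4410194 to 10947947 gene counts at 37 °C, against 11503305 to 19012050 at 20 °C, so that a footprint level at 37 °C rests on fewer reads. The mRNA of metl-5 was 3.38, 2.35 and 2.83 CPM (counts per 1000000 counts in genes; replicates 1, 2 and 3 in this order throughout) in metl-5 worms at 37 °C and 8.63, 6.48 and 6.87 CPM in WT worms at 37 °C. At 20 °C it was 2.62, 2.15 and 2.16 CPM in metl-5 worms and 10.2, 9.92 and 6.51 CPM in WT worms, so that no mRNA library went against its strain label. In footprints, metl-5 37 °C replicates 2 and 3 held 7.85 and 5.35 CPM of metl-5, against 1.29 CPM in replicate 1 of that group and 7.26, 8.40 and 5.56 CPM in WT 37 °C. These 2 libraries also held ZK228.3, at 9.33 and 11.3 CPM, a gene at 0 in every metl-5 mRNA library. WT 37 °C replicate 3 and WT 20 °C replicate 2 held 4.17 and 11.4 CPM of cTel55X.1, a gene at 0 in every WT mRNA library. Footprints of hsp-70, a heat shock chaperone gene, were 17602, 6909 and 24087 CPM in WT 37 °C, beside 16100.3 to 22811 CPM in metl-5 37 °C. They were 25.5, 5083 and 10.8 CPM in metl-5 20 °C, beside 19.7 to 33.7 CPM in WT 20 °C. WT 37 °C replicate 2 and metl-5 20 °C replicate 2 thus lay between the temperatures, and the counts of members that changed in footprints with heat are also given without these 2 libraries and without all 6 libraries named here. The fit without the 6 libraries leaves 1 footprint library in each 37 °C group, replicate 1, and takes the spread from the 20 °C groups, so that it checks no spread at 37 °C. Markers of adults and of the intestine were detected in every group, and none of the 5 adult or 10 intestine genes was at 0.

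Taken as one sum, the family held 0.376 ± 0.0573% of the mRNA gene counts of metl-5 worms at 37 °C, against 0.477 ± 0.0847% at 20 °C (mean ± SD, n = 3 as for every group). In WT worms the share was 0.376 ± 0.0477% at 37 °C, against 0.497 ± 0.130% at 20 °C. The ranges of the mRNA shares overlapped between the temperatures in both strains. Of the footprint counts the family held 0.118 ± 0.0356% in metl-5 at 37 °C, against 0.273 ± 0.0378% at 20 °C, and 0.135 ± 0.0516% in WT at 37 °C, against 0.287 ± 0.0530% at 20 °C. The footprint shares of the 37 °C libraries all lay below those of the 20 °C libraries of the same strain. The mRNA sum changes direction with the scaling: with the library sizes scaled by the trimmed mean of M-values (TMM), which sets levels relative to the bulk of genes, it was 4496 CPM in metl-5 at 37 °C, against 3856 CPM at 20 °C.

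A few saposin-like genes made up most of the family. On the scale of mRNA CPM per kilobase of exon, in WT worms at 20 °C spp-5 stood at 3533 ± 907 and spp-14 at 3228 ± 1047, followed by spp-3 at 1411 ± 502 and spp-17 at 1342 ± 345. The libraries of spp-5 and spp-14 overlapped, as did those of spp-3 and spp-17. Together spp-5 and spp-14 gave 46.2 ± 4.10% of the family's mRNA counts in metl-5 at 37 °C, against 48.6 ± 3.29% at 20 °C. In WT this mRNA share was 42.99 ± 3.57% at 37 °C, against 49.3 ± 0.874% at 20 °C. Their share of the family's footprints was 17.6 ± 6.26% in metl-5 at 37 °C, against 39.97 ± 3.90% at 20 °C, and 20.4 ± 12.7% in WT at 37 °C, against 41.3 ± 1.53% at 20 °C. The most abundant messages of the family thus gave a smaller part of its footprints in each 37 °C library than in any 20 °C library of the same strain.

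At 37 °C the mRNA of the family moved in both directions while most of its footprints were lower. Changes were tested gene by gene over all genes with edgeR's quasi-likelihood test and called at a Benjamini-Hochberg adjusted p below 0.05. The log2 differences are 37 °C minus 20 °C, are given ± SE, and are relative to the bulk of genes. In mRNA 28 of the 46 members had enough counts to be tested. Of these, 7 rose and 4 fell in metl-5 worms, where 10.8% of the 13315 genes tested rose and 9.16% fell. In WT worms 6 rose and 2 fell, where 9.76% of all genes rose and 8.5% fell. The mRNA of spp-15, which passed in neither strain, cannot be read for a reason given with that gene. Over the other 27 tested members the median mRNA difference was 0.34 in metl-5 and 0.01 in WT, beside -0.01 and -0.02 over all genes.

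In footprints 26 members were tested. Of these, 0 rose and 12 fell in metl-5 worms, where 12.2% of the 12387 genes tested rose and 14.7% fell. In WT worms 1 rose and 7 fell, beside 9.78% of all genes that rose and 6.93% that fell. The median footprint difference of the tested members was -1.66 in metl-5 and -1.34 in WT, beside -0.05 and -0.03 over all genes. These shares of all genes are those of the fit of all libraries. The counts of the other fits that follow have no share of all genes beside them. A higher count there cannot be told from more of all genes passing. Without the 2 libraries between the temperatures 1 member rose and 14 fell in metl-5, and 2 rose and 18 fell in WT. Without all 6 libraries, with 1 library at 37 °C in each strain, 1 rose and 16 fell in each, and with the replicate number as a block 2 rose and 15 fell in each. Of the members tested in both assays, 25 are compared here, without spp-15. The footprint difference lay below the mRNA difference in 22 of them in metl-5 and in 23 in WT. They include spp-16, whose mRNA count is limited by an overlapping gene, as given with that gene. For all genes, the nearest value comes from the joint test of footprints per mRNA described below. There 6377 of 12079 genes lay below 0 in metl-5 and 6186 in WT. The mRNA difference was above 0 and the footprint difference below 0 in 10 members in metl-5 and in 9 in WT. No member had the opposite pair of signs. The share of all genes with these pairs of signs was not computed, so these counts do not set the family apart from other genes. In whole worms, fewer cells of a type and less RNA or fewer ribosomes per cell cannot be told apart.

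Single libraries and the scaling set how many members passed. The TMM scaling raised the mRNA differences by 0.59 in metl-5 and 0.48 in WT above those of plain CPM, and lowered the footprint differences by 0.08 and 0.09. Scaled by library totals, 1 member rose and 8 fell in metl-5 mRNA and 1 rose and 6 fell in WT mRNA, with medians of all genes at -0.60 and -0.49. The one that still rose was spp-8, at 1.39 ± 0.27 in metl-5 and 1.45 ± 0.27 in WT. No member called with TMM changed direction. In metl-5 mRNA the number of members that passed, in either direction, was 5, 6 and 3 without metl-5 20 °C replicates 1, 2 and 3, and 4, 9 and 4 without metl-5 37 °C replicates 1, 2 and 3. In WT mRNA it was 9, 6 and 3 without WT 20 °C replicates 1, 2 and 3, and 3, 7 and 3 without WT 37 °C replicates 1, 2 and 3. In footprints, no member passed in WT without WT 20 °C replicate 1 or 3 or WT 37 °C replicate 1 or 3, 3 passed without WT 20 °C replicate 2, and 20 passed without WT 37 °C replicate 2. For metl-5 footprints the number was 0 without metl-5 20 °C replicate 1, 1 without replicate 3 of that group, and 3, 15 and 2 without metl-5 37 °C replicates 1, 2 and 3. Gene by gene, each WT footprint call was lost in 4 or 5 of 6 fits without 1 library. Each metl-5 footprint call was lost in 1 (spp-23) to 5 (lys-4) of 6 fits.

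**Figure D1:**
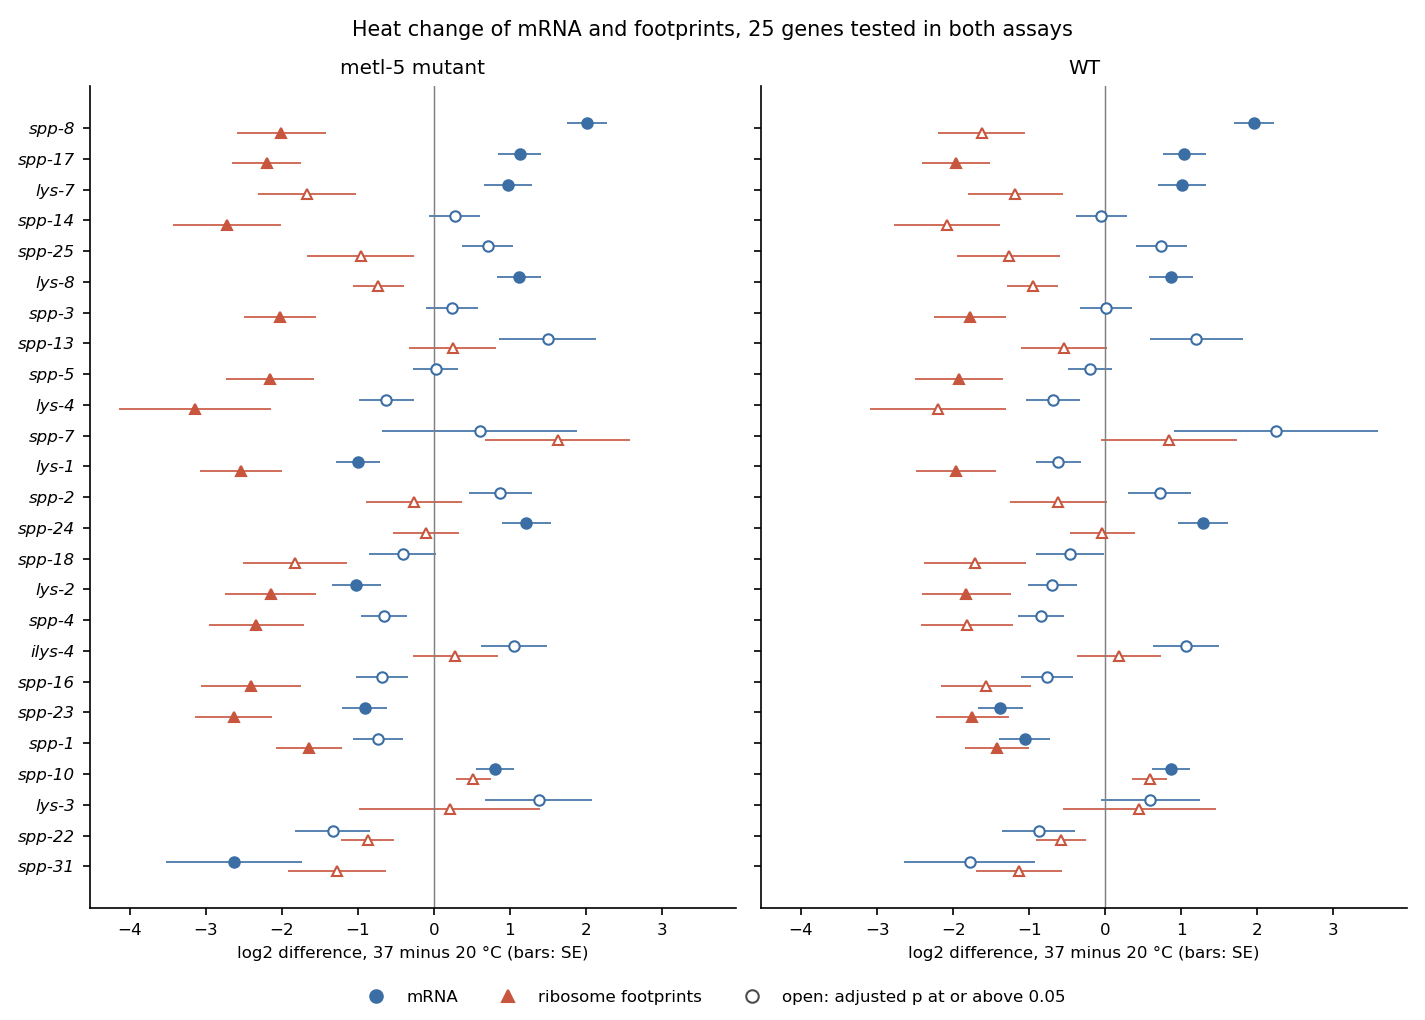
Log2 difference, 37 minus 20 °C, of mRNA (circles) and ribosome footprints (triangles) for the 25 members tested in both assays other than spp-15, in metl-5 (left) and WT (right) worms, with SE bars; filled marks passed an adjusted p of 0.05. Members are ordered by footprint minus mRNA difference in WT, so that spp-8 and spp-17, with mRNA to the right of 0 and footprints to the left, stand at the top.

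Among the saposin-like genes, spp-8 and spp-17 rose in mRNA and had lower footprints at 37 °C. In metl-5 worms spp-8 mRNA was 94.6, 89.1 and 112 CPM at 37 °C, against 41.01, 44.5 and 27.4 CPM at 20 °C. In WT worms it was 113, 92.7 and 106 CPM at 37 °C, against 43.4, 40.5 and 30.3 CPM at 20 °C. All 37 °C libraries lay above all 20 °C libraries in both strains. In metl-5 worms spp-8 footprints were 4.94, 16.4 and 6.54 CPM at 37 °C, against 33.3, 27.2 and 46.2 CPM at 20 °C. In WT worms they were 6.35, 26.3 and 4.94 CPM at 37 °C, against 39.8, 33.2 and 39.1 CPM at 20 °C. Every 37 °C library lay below every 20 °C library of the same strain, and replicate 2 was the highest of the 37 °C libraries in both strains. The mRNA log2 difference of spp-8 was 2.01 ± 0.26 in metl-5 (adjusted p = 0.000114) and 1.96 ± 0.26 in WT (adjusted p = 0.000145), and it passed in each fit without 1 library. The footprint log2 difference was -2.01 ± 0.59 in metl-5 (adjusted p = 0.0274) and -1.62 ± 0.57 in WT (adjusted p = 0.0631). Without the 2 libraries between the temperatures the WT footprint difference was -2.83 ± 0.47 (adjusted p = 0.00119), and with the replicate number as a block it was -1.89 ± 0.56 in WT (adjusted p = 0.0342).

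The spp-17 message was among the most abundant of the family. In metl-5 worms spp-17 mRNA was 767, 648 and 617 CPM at 37 °C, against 444, 458 and 498 CPM at 20 °C. In WT worms it was 819, 606 and 699.9 CPM at 37 °C, against 629, 385 and 454 CPM at 20 °C. In metl-5 the 37 °C libraries lay above all 20 °C libraries, whereas in WT the lowest 37 °C library lay below the highest 20 °C library. In metl-5 worms spp-17 footprints were 25.6, 27.4 and 19.04 CPM at 37 °C, against 93.6, 67.3 and 146 CPM at 20 °C. In WT worms they were 26.3, 52.98 and 13.1 CPM at 37 °C, against 122.6, 84.9 and 132 CPM at 20 °C. No footprint library at 37 °C reached a 20 °C library of its strain. For spp-17 the mRNA log2 difference was 1.13 ± 0.28 in metl-5 (adjusted p = 0.0121) and 1.04 ± 0.28 in WT (adjusted p = 0.0201), and the footprint log2 difference was -2.20 ± 0.46 in metl-5 (adjusted p = 0.0121) and -1.96 ± 0.45 in WT (adjusted p = 0.028). Without 1 library the mRNA call of spp-17 was lost in 1 of 6 fits in metl-5 and in 4 of 6 in WT, with an adjusted p of at most 0.101. Both genes lie in pairs of family members in the WBcel235 annotation: spp-8 beside spp-10 on chromosome IV and spp-17 beside spp-23 on chromosome I.

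The abundant spp-5, spp-14 and spp-3 were lower in footprints without a called change of mRNA. Caenopore-5, the product of spp-5, forms pores in bacterial membranes and kills ingested bacteria in the gut. In metl-5 worms spp-5 mRNA was 915, 1008 and 632 CPM at 37 °C, against 1216, 944 and 1517 CPM at 20 °C. In WT worms it was 808, 1024 and 663 CPM at 37 °C, against 1530.5, 921 and 1469 CPM at 20 °C. These mRNA levels overlapped between the temperatures. In metl-5 worms spp-5 footprints were 107, 242 and 74.2 CPM at 37 °C, against 573, 455 and 733 CPM at 20 °C. In WT worms they were 135, 368 and 61.9 CPM at 37 °C, against 732, 488 and 786 CPM at 20 °C. Here the temperatures did not overlap in either strain. The footprint log2 difference of spp-5 was -2.15 ± 0.58 in metl-5 (adjusted p = 0.0212) and -1.92 ± 0.58 in WT (adjusted p = 0.0419), beside mRNA differences of 0.02 ± 0.29 and -0.20 ± 0.29 (adjusted p = 0.965 and 0.67).

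For spp-14 the pattern of levels was alike. In metl-5 worms spp-14 mRNA was 1129, 912 and 663 CPM at 37 °C, against 1268, 818 and 1229.5 CPM at 20 °C. In WT worms it was 957, 839.9 and 586 CPM at 37 °C, against 1547, 808 and 1092 CPM at 20 °C. These mRNA levels overlapped in both strains. In metl-5 worms spp-14 footprints were 64.9, 145 and 36.1 CPM at 37 °C, against 653, 393 and 475 CPM at 20 °C. In WT worms they were 71.4, 288 and 28.7 CPM at 37 °C, against 701, 428 and 429 CPM at 20 °C. The 37 °C footprint libraries lay below all 20 °C libraries, with replicate 2 the highest at 37 °C. The footprint difference of spp-14 was -2.72 ± 0.71 in metl-5 (adjusted p = 0.0193) and -2.08 ± 0.69 in WT (adjusted p = 0.0546), and without the 2 libraries between the temperatures it was -3.48 ± 0.59 in WT (adjusted p = 0.00127). With the block the spp-14 footprint difference was -2.54 ± 0.66 in WT (adjusted p = 0.027). The spp-3 gene stands first in a run of 5 spp genes on chromosome X that also holds spp-5 and spp-4. In metl-5 worms spp-3 mRNA was 392, 365 and 306 CPM at 37 °C, against 369, 304 and 647 CPM at 20 °C. In WT worms it was 356, 365 and 328 CPM at 37 °C, against 484, 312 and 656 CPM at 20 °C. The mRNA ranges of spp-3 overlapped. In metl-5 worms spp-3 footprints were 63.8, 122.7 and 57.5 CPM at 37 °C, against 284, 256 and 391 CPM at 20 °C. In WT worms they were 71.2, 196 and 46.96 CPM at 37 °C, against 361, 269 and 388 CPM at 20 °C. The footprint ranges did not, and the footprint difference was -2.02 ± 0.48 in metl-5 (adjusted p = 0.0148) and -1.78 ± 0.47 in WT (adjusted p = 0.0339).

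Lower values in both assays were seen for spp-1, spp-4 and spp-23. Caenopore-1, encoded by spp-1, is a pore-forming antibacterial protein. In metl-5 worms spp-1 mRNA was 86.5, 68.7 and 53.99 CPM at 37 °C, against 169.9, 108 and 233 CPM at 20 °C. In WT worms it was 64.1, 73.8 and 64.8 CPM at 37 °C, against 214, 128 and 242 CPM at 20 °C. The temperatures did not overlap in either strain. In metl-5 worms spp-1 footprints were 14.2, 22.1 and 13.3 CPM at 37 °C, against 56.1, 33.3 and 55.4 CPM at 20 °C. In WT worms they were 11.1, 34.9 and 12.7 CPM at 37 °C, against 57.2, 37.2 and 55.6 CPM at 20 °C. These did not overlap either. The mRNA log2 difference of spp-1 was -0.73 ± 0.33 in metl-5 (adjusted p = 0.129) and -1.06 ± 0.33 in WT (adjusted p = 0.037), and the footprint difference -1.64 ± 0.43 in metl-5 (adjusted p = 0.0197) and -1.42 ± 0.43 in WT (adjusted p = 0.0418). The WT mRNA call was lost in 5 of 6 fits without 1 library, and under library totals spp-1 fell in both strains.

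The mRNA of spp-23 fell in both strains. In metl-5 worms spp-23 mRNA was 27.4, 29.7 and 16.4 CPM at 37 °C, against 53.6, 60.4 and 88.7 CPM at 20 °C. In WT worms it was 13.8, 27.9 and 17.3 CPM at 37 °C, against 79.2, 53.1 and 74.1 CPM at 20 °C. Every 37 °C library lay below every 20 °C library of its strain. In metl-5 worms spp-23 footprints were 6.02, 10.4 and 5.35 CPM at 37 °C, against 35.8, 34.4 and 57.4 CPM at 20 °C. In WT worms they were 6.35, 23.2 and 5.56 CPM at 37 °C, against 37.8, 35.1 and 41.2 CPM at 20 °C. The footprints did not overlap between the temperatures, and WT 37 °C replicate 2 was the highest at 37 °C. In spp-23 the mRNA log2 difference was -0.91 ± 0.29 in metl-5 (adjusted p = 0.0375) and -1.38 ± 0.29 in WT (adjusted p = 0.00529), and the footprint difference -2.63 ± 0.51 in metl-5 (adjusted p = 0.0116) and -1.75 ± 0.48 in WT (adjusted p = 0.0354). The WT mRNA call held in each of 6 fits without 1 library and the metl-5 mRNA call in 1 of 6. For spp-4, in metl-5 worms spp-4 mRNA was 34.4, 36.7 and 21.5 CPM at 37 °C, against 67.9, 52.1 and 93.02 CPM at 20 °C. In WT worms it was 29.2, 42.2 and 30.8 CPM at 37 °C, against 98.8, 55.3 and 97.1 CPM at 20 °C. In metl-5 worms spp-4 footprints were 9.67, 16.3 and 3.97 CPM at 37 °C, against 48.2, 34.4 and 59.7 CPM at 20 °C. In WT worms they were 12.5, 36.6 and 5.25 CPM at 37 °C, against 66.4, 41.5 and 74.3 CPM at 20 °C. Neither assay had overlapping temperatures. Its mRNA difference passed in neither strain in the fit reported (-0.66 ± 0.30 in metl-5 and -0.85 ± 0.30 in WT, adjusted p = 0.136 and 0.0606). The lower spp-4 mRNA passed in WT with DESeq2, with the block and without the filter on low counts. Under library totals it passed in both strains. The footprint difference was -2.33 ± 0.62 in metl-5 (adjusted p = 0.0208) and -1.82 ± 0.60 in WT (adjusted p = 0.0539), and -2.91 ± 0.55 in WT without the 2 libraries between the temperatures (adjusted p = 0.00212). With the block it was -2.05 ± 0.66 in WT (adjusted p = 0.0401).

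Higher footprints were seen for spp-10 and spp-15. The worm orthologue of prosaposin, spp-10, encodes the precursor of lysosomal activator proteins rather than a known pore former. In metl-5 worms spp-10 mRNA was 170.5, 172 and 150.1 CPM at 37 °C, against 172, 142 and 113 CPM at 20 °C. In WT worms it was 172, 164 and 148 CPM at 37 °C, against 162, 109.7 and 99.3 CPM at 20 °C. The ranges overlapped in both strains, with the 20 °C replicate 1 library at the level of the 37 °C libraries. In metl-5 worms spp-10 footprints were 575, 518 and 452 CPM at 37 °C, against 345, 400.0 and 276 CPM at 20 °C. In WT worms they were 665, 361 and 479.9 CPM at 37 °C, against 365, 300.2 and 274 CPM at 20 °C. In metl-5 the 37 °C footprints lay above all 20 °C libraries, and in WT replicate 2 at 37 °C lay within the 20 °C range. The mRNA log2 difference of spp-10 was 0.80 ± 0.25 in metl-5 (adjusted p = 0.0348) and 0.87 ± 0.25 in WT (adjusted p = 0.0254), and each of these calls was lost in 4 of 6 fits without 1 library. The footprint difference was 0.52 ± 0.23 in metl-5 (adjusted p = 0.101) and 0.59 ± 0.23 in WT (adjusted p = 0.082), and 0.78 ± 0.22 in WT without the 2 libraries between the temperatures (adjusted p = 0.0149). With the block the spp-10 footprint difference passed in both strains, at 0.52 ± 0.18 in metl-5 (adjusted p = 0.0464) and 0.57 ± 0.18 in WT (adjusted p = 0.0403).

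The footprints of spp-15 rose in WT. In metl-5 worms spp-15 footprints were 81.9, 64.99 and 62.5 CPM at 37 °C, against 39.3, 55.1 and 26.4 CPM at 20 °C. In WT worms they were 98.2, 46.1 and 68.4 CPM at 37 °C, against 38.3, 33.9 and 26.8 CPM at 20 °C. The 37 °C libraries lay above all 20 °C libraries in both strains. The footprint log2 difference was 0.73 ± 0.28 in metl-5 (adjusted p = 0.0721) and 1.01 ± 0.29 in WT (adjusted p = 0.0377), and 0.96 ± 0.26 in metl-5 without the 2 libraries between the temperatures (adjusted p = 0.0162). With the block it was 0.73 ± 0.25 in metl-5 (adjusted p = 0.0407). The mRNA of this gene cannot be read from the unstranded counts. C48E7.6 lies over it on the other strand, and the unstranded count kept 4.61 to 6.09% of the mRNA reads that the columns for the 2 strands assign to spp-15. Its mRNA level of 1.001 to 3.09 CPM and its ratio of footprints to mRNA are therefore not read. It is counted among the 28 members tested in mRNA and the 26 tested for footprints per mRNA, was called in neither, and is left out of the medians of mRNA and of footprints per mRNA and of the comparison of mRNA with footprint differences.

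Of the lysozymes, lys-1 and lys-2 were lower in both assays. The lys-1 gene is expressed in the intestine and is known to be induced by the pathogen Serratia marcescens, and lys-2 is used as a marker of the response to Pseudomonas aeruginosa. In metl-5 worms lys-1 mRNA was 174, 227 and 161 CPM at 37 °C, against 542, 439.8 and 664 CPM at 20 °C. In WT worms it was 231, 272 and 218 CPM at 37 °C, against 651, 308 and 562 CPM at 20 °C. No 37 °C library reached a 20 °C library of its strain. In metl-5 worms lys-1 footprints were 40.8, 98.9 and 38.1 CPM at 37 °C, against 309.8, 225 and 429.5 CPM at 20 °C. In WT worms they were 57.4, 164 and 42.01 CPM at 37 °C, against 395, 221 and 354 CPM at 20 °C. The footprints were likewise apart, with replicate 2 the highest at 37 °C and the lowest at 20 °C. The mRNA log2 difference of lys-1 was -0.999 ± 0.29 in metl-5 (adjusted p = 0.0265) and -0.62 ± 0.29 in WT (adjusted p = 0.15), and the footprint difference -2.54 ± 0.54 in metl-5 (adjusted p = 0.0124) and -1.96 ± 0.53 in WT (adjusted p = 0.0347). The metl-5 mRNA call was lost in 4 of 6 fits without 1 library. Under library totals the WT mRNA of lys-1 also fell, by 1.08 ± 0.28 (adjusted p = 0.0112).

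Next to lys-1 on chromosome V lies lys-2. In metl-5 worms lys-2 mRNA was 40.8, 96.4 and 42.005 CPM at 37 °C, against 175, 169.8 and 179 CPM at 20 °C. In WT worms it was 59.3, 124 and 52.4 CPM at 37 °C, against 237, 119.6 and 147 CPM at 20 °C. In metl-5 the temperatures did not overlap, and in WT replicate 2 at 37 °C lay just above replicate 2 at 20 °C. In metl-5 worms lys-2 footprints were 10.1, 38.9 and 10.3 CPM at 37 °C, against 70.97, 72.4 and 107 CPM at 20 °C. In WT worms they were 13.8, 47.9 and 11.9 CPM at 37 °C, against 102, 60.6 and 86.5 CPM at 20 °C. The footprints did not overlap. The mRNA log2 difference was -1.02 ± 0.32 in metl-5 (adjusted p = 0.0376) and -0.69 ± 0.32 in WT (adjusted p = 0.143), and the footprint difference -2.15 ± 0.59 in metl-5 (adjusted p = 0.0227) and -1.82 ± 0.58 in WT (adjusted p = 0.0491). The metl-5 mRNA call was lost in 5 of 6 fits without 1 library. For lys-4, in metl-5 worms lys-4 mRNA was 9.49, 32.3 and 17.3 CPM at 37 °C, against 34.7, 60.04 and 39.4 CPM at 20 °C. In WT worms it was 16.9998, 54.5 and 24.1 CPM at 37 °C, against 85.2, 62.7 and 53.8 CPM at 20 °C. The mRNA difference passed in neither strain (-0.62 ± 0.36 and -0.69 ± 0.36, adjusted p = 0.239 and 0.194). In metl-5 worms lys-4 footprints were 0.215, 4.29 and 0.992 CPM at 37 °C, against 11.3, 20.2 and 18.4 CPM at 20 °C. In WT worms they were 0.907, 15.8 and 0.463 CPM at 37 °C, against 27.6, 26.5 and 25.8 CPM at 20 °C. Replicate 2 stood far above the other 37 °C libraries in both strains, and no 37 °C library reached the 20 °C range. The lowest of these footprint levels rest on few reads, 1 count in metl-5 37 °C replicate 1. The footprint difference was -3.14 ± 1.002 in metl-5 (adjusted p = 0.0366) and -2.20 ± 0.89 in WT (adjusted p = 0.0922), and -5.42 ± 0.80 in WT without the 2 libraries between the temperatures (adjusted p = 0.000669). With the block the lys-4 footprint difference was -2.98 ± 0.82 in WT (adjusted p = 0.0293).

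In lys-7 and lys-8 the mRNA rose, and the lower footprints passed under some of the alternatives but not in the edgeR fit of all libraries without the block. Both genes are known as targets of the insulin pathway's DAF-16, lys-8 also of the DBL-1 pathway, and lys-7 takes part in resistance to pathogens. In metl-5 worms lys-7 mRNA was 19.5, 71.9 and 38.7 CPM at 37 °C, against 25.8, 44.5 and 27.4 CPM at 20 °C. In WT worms it was 27.3, 57.1 and 37.96 CPM at 37 °C, against 27.9, 29.2 and 25.2 CPM at 20 °C. The temperatures overlapped in both strains, and the 37 °C libraries spread more than the 20 °C libraries. In metl-5 worms lys-7 footprints were 2.58, 12.3 and 4.16 CPM at 37 °C, against 17.2, 23.3 and 18.6 CPM at 20 °C. In WT worms they were 2.95, 18.999 and 3.86 CPM at 37 °C, against 13.8, 22.03 and 21.5 CPM at 20 °C. The footprints were apart in metl-5, and in WT replicate 2 at 37 °C lay within the 20 °C range. The mRNA log2 difference of lys-7 was 0.97 ± 0.32 in metl-5 (adjusted p = 0.0426) and 1.01 ± 0.32 in WT (adjusted p = 0.0393), but the call was lost in 4 of 6 fits without 1 library in metl-5 and in all 6 in WT. The footprint difference was -1.67 ± 0.65 in metl-5 (adjusted p = 0.0704) and -1.18 ± 0.63 in WT (adjusted p = 0.177). With the block the lys-7 footprints fell in both strains, at -1.98 ± 0.49 in metl-5 (adjusted p = 0.0146) and -1.55 ± 0.47 in WT (adjusted p = 0.036). Without the 2 libraries between the temperatures the values were -1.57 ± 0.49 in metl-5 (adjusted p = 0.029) and -2.57 ± 0.57 in WT (adjusted p = 0.00513), and DESeq2 gave an adjusted p of 0.0317 in metl-5 and 0.126 in WT.

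The lys-8 mRNA was higher in level. In metl-5 worms lys-8 mRNA was 172, 196 and 167 CPM at 37 °C, against 138, 148 and 88.2 CPM at 20 °C. In WT worms it was 192, 207 and 156 CPM at 37 °C, against 208, 126 and 87.7 CPM at 20 °C. In metl-5 the temperatures were apart, and in WT replicate 1 at 20 °C was the highest of all 6 libraries. In metl-5 worms lys-8 footprints were 57.4, 121 and 55.3 CPM at 37 °C, against 122, 118 and 126 CPM at 20 °C. In WT worms they were 69.6, 95.7 and 42.6 CPM at 37 °C, against 150.01, 106 and 122.7 CPM at 20 °C. In WT the 37 °C footprints lay below all 20 °C libraries, and in metl-5 replicate 2 lay within the 20 °C range. For lys-8 the mRNA log2 difference was 1.12 ± 0.29 in metl-5 (adjusted p = 0.0133) and 0.87 ± 0.29 in WT (adjusted p = 0.0457), and the footprint difference -0.73 ± 0.33 in metl-5 (adjusted p = 0.112) and -0.95 ± 0.34 in WT (adjusted p = 0.0634). Its mRNA call was lost in 1 of 6 fits without 1 library in metl-5 and in 4 of 6 in WT. In WT the lys-8 footprints fell with the block, at -1.03 ± 0.32 in WT (adjusted p = 0.0383), without the 2 libraries between the temperatures, at -1.27 ± 0.36 (adjusted p = 0.0163), and by DESeq2 (adjusted p = 0.0348). In metl-5 the lys-8 footprints passed in none of these, with adjusted p-values of 0.0663, 0.0919 and 0.108. An overlapping gene on the other strand, C17G10.13, took part of the lys-8 reads: the unstranded count kept 90.5 to 92.7% of the mRNA reads on both strands.

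**Figure D2:**
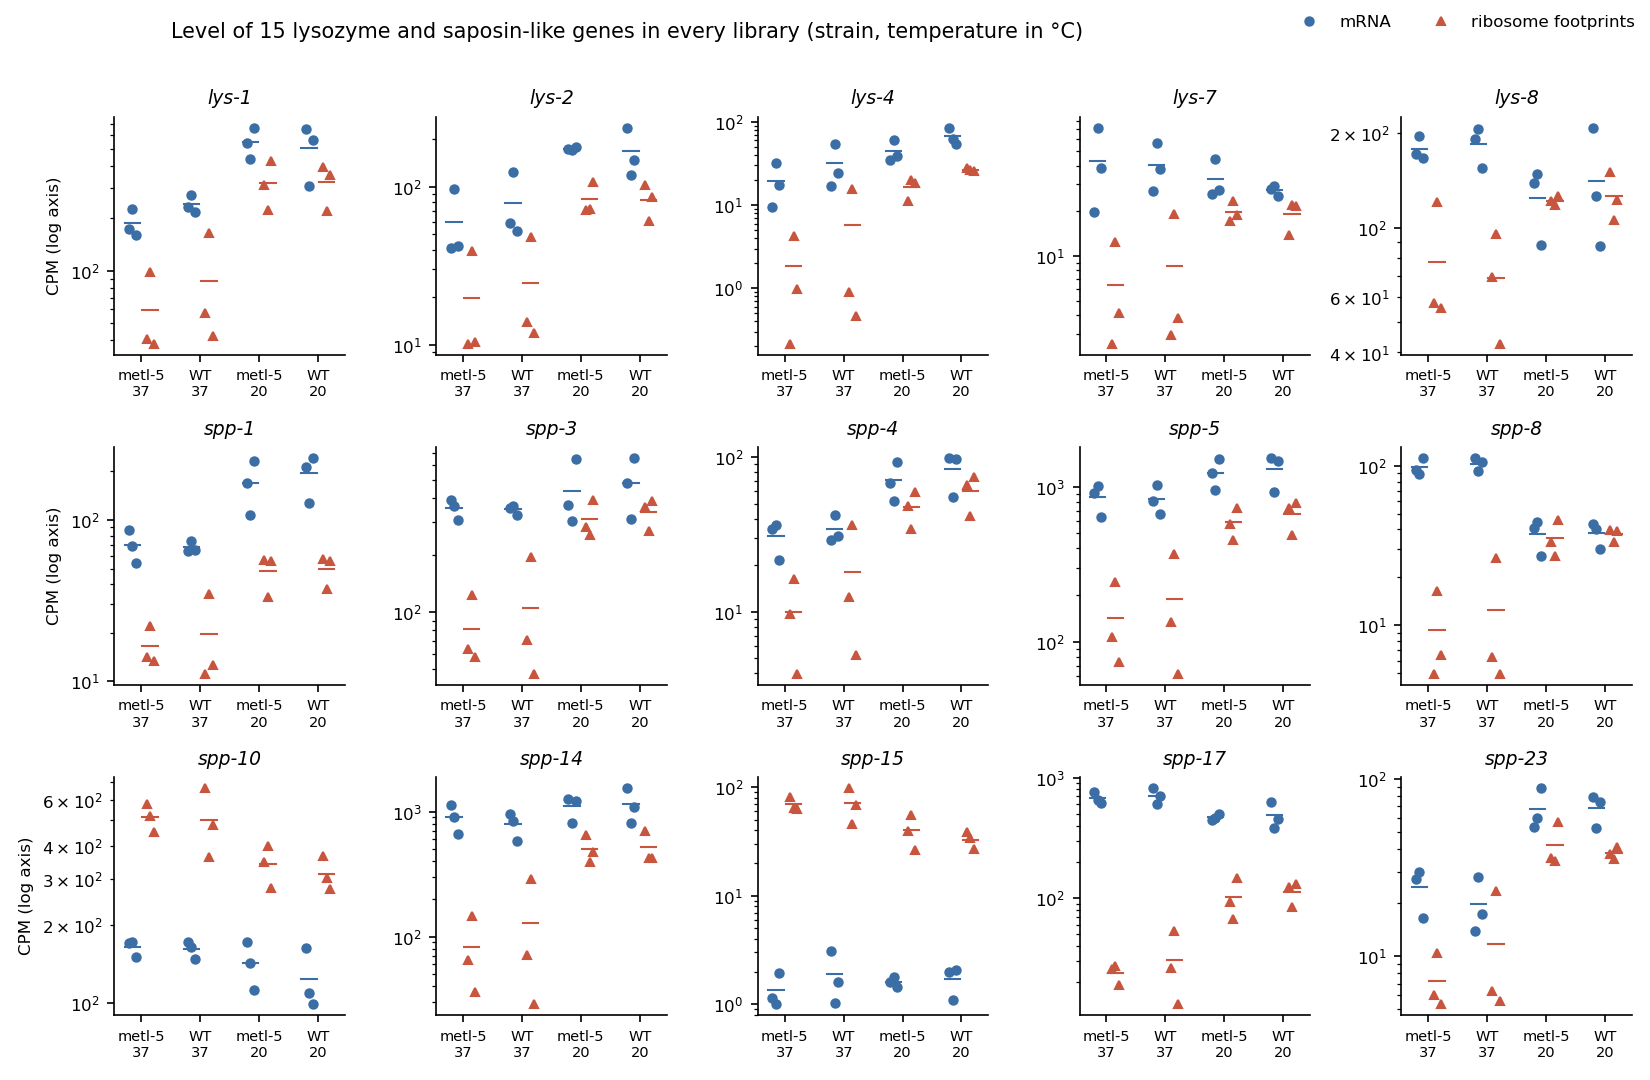
Level of 15 members in every library, in CPM on a log axis, with mRNA as circles, footprints as triangles and the group mean as a bar; groups run from metl-5 37 °C and WT 37 °C to metl-5 20 °C and WT 20 °C, and replicates 1, 2 and 3 from left to right within a group. The footprints of 13 members are lower at 37 °C in most libraries, and those of spp-10 and spp-15 are higher.

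Footprints per mRNA fell at 37 °C in part of the family, and no rise passed the test. The difference was above 0 in 4 of the tested members in metl-5 and in 3 in WT, with spp-15 counted among those tested. The change of footprints relative to the change of mRNA was tested with edgeR in 1 fit of the 24 libraries, in which assay and temperature interact. Of the 26 members tested, 8 fell in metl-5 and 5 in WT, where 9.72% and 8.3% of 12079 genes fell and 11.2% and 11% rose. Without spp-15 the members' median was -1.48 in metl-5 and -1.31 in WT, beside -0.07 and -0.03 over all genes. In this fit, which has no replicate block, spp-3, spp-8, spp-17, lys-7 and lys-8 were lower in both strains. In metl-5 spp-5, spp-14 and spp-23 were also lower. Without 1 library the WT call was lost in 10 of 12 fits for lys-7 and in 8 of 12 for spp-3. The metl-5 call was lost in 1 of 12 fits for lys-7, 5 of 12 for spp-5 and 8 of 12 for spp-23. The other calls held in each of the 12 fits. The shares of all genes above are those of the fit of all libraries, and none stands beside the counts that follow. Higher counts among these likewise cannot be told from more of all genes passing. Without the 2 libraries between the temperatures 13 members fell in metl-5 and 16 in WT. With the replicate number as a block 13 and 14 fell. Without all 6 libraries, with 1 footprint library in each 37 °C group, the numbers were 13 and 12. Under library totals 4 fell in metl-5 and 2 in WT, with medians of all genes at 0.54 and 0.50. Without metl-5 37 °C footprint replicate 2 or 3 the metl-5 number was 15 or 5. Without WT 37 °C footprint replicate 2 the WT number was 16, and it was 3 without WT 37 °C footprint replicate 1 or 3, WT 20 °C footprint replicate 3, WT 37 °C mRNA replicate 1 or 3, or WT 20 °C mRNA replicate 2.

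The size of these changes is seen best in spp-8 and spp-17. In metl-5 worms the ratio of footprint to mRNA CPM of spp-8 was 0.0523, 0.184 and 0.0586 at 37 °C, against 0.813, 0.610 and 1.68 at 20 °C. In WT worms it was 0.0564, 0.284 and 0.0467 at 37 °C, against 0.916, 0.821 and 1.29 at 20 °C. At 20 °C spp-8 thus stood among the higher ratios of the family, and at 37 °C among the lower. The tested changes given here are relative to the bulk of genes and so differ from the change of these plain CPM ratios. For spp-8 the tested log2 change of footprints per mRNA was -3.96 ± 0.65 in metl-5 (adjusted p = 0.000536) and -3.56 ± 0.64 in WT (adjusted p = 0.00113). In metl-5 worms the ratio of footprint to mRNA CPM of spp-17 was 0.0334, 0.0423 and 0.0309 at 37 °C, against 0.211, 0.147 and 0.294 at 20 °C. In WT worms it was 0.0321, 0.0874 and 0.0188 at 37 °C, against 0.195, 0.220 and 0.290 at 20 °C. The tested change of spp-17 was -3.27 ± 0.55 in metl-5 (adjusted p = 0.000658) and -2.98 ± 0.55 in WT (adjusted p = 0.00127). For both genes the ratios of the temperatures did not overlap, and the calls held in each of 12 fits without 1 library. The lys-8 change, -1.80 ± 0.46 in metl-5 and -1.80 ± 0.46 in WT (adjusted p = 0.00832 and 0.00895), also held in each of them. Under library totals the lys-8 call was lost in both strains, whereas those of spp-8 and spp-17 were kept. Among the abundant genes, the mean ratio of spp-5 was 0.166 in metl-5 at 37 °C, against 0.479 at 20 °C, and 0.226 in WT at 37 °C, against 0.512 at 20 °C. The tested change of spp-5 was -2.12 ± 0.67 in metl-5 (adjusted p = 0.0265) and -1.70 ± 0.67 in WT (adjusted p = 0.0754). With the block it was -2.10 ± 0.51 in WT (adjusted p = 0.011). The spp-3 change was -2.21 ± 0.62 in metl-5 (adjusted p = 0.0137) and -1.77 ± 0.61 in WT (adjusted p = 0.0449), and that of spp-14 -2.94 ± 0.81 in metl-5 (adjusted p = 0.0125) and -2.01 ± 0.80 in WT (adjusted p = 0.0803). With the block the spp-14 change was -2.68 ± 0.70 in WT (adjusted p = 0.0143). By contrast spp-10 had a mean ratio of 3.14 in metl-5 at 37 °C, against 2.39 at 20 °C, and 3.11 in WT at 37 °C, against 2.53 at 20 °C, the highest ratio of the 14 members plotted in every group. Its tested change relative to the bulk of genes was -0.22 ± 0.35 in metl-5 (adjusted p = 0.709) and -0.26 ± 0.35 in WT (adjusted p = 0.67).

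**Figure D3:**
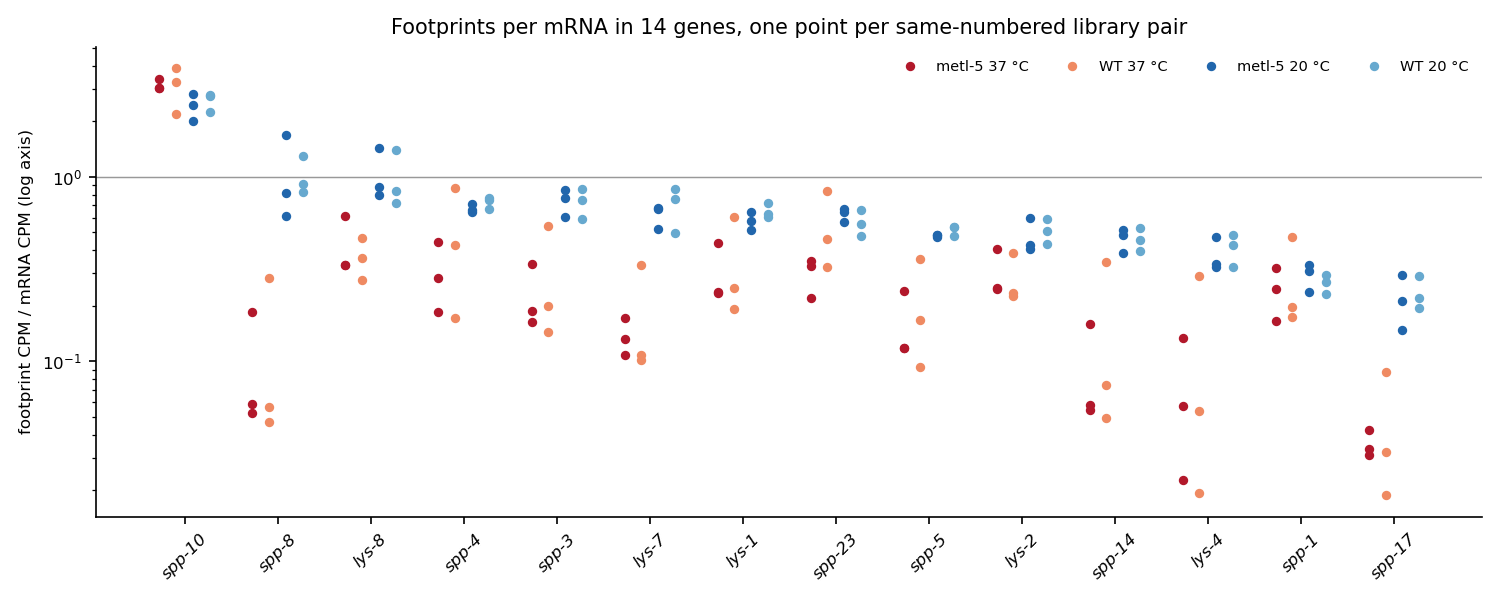
Footprint CPM divided by mRNA CPM for 14 members on a log axis, with 1 point per pair of libraries of the same group and number; colours give metl-5 37 °C, WT 37 °C, metl-5 20 °C and WT 20 °C from left to right. The 37 °C points of spp-8 and spp-17 lie below their 20 °C points in both strains, and spp-10 stands highest.

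**Figure D4:**
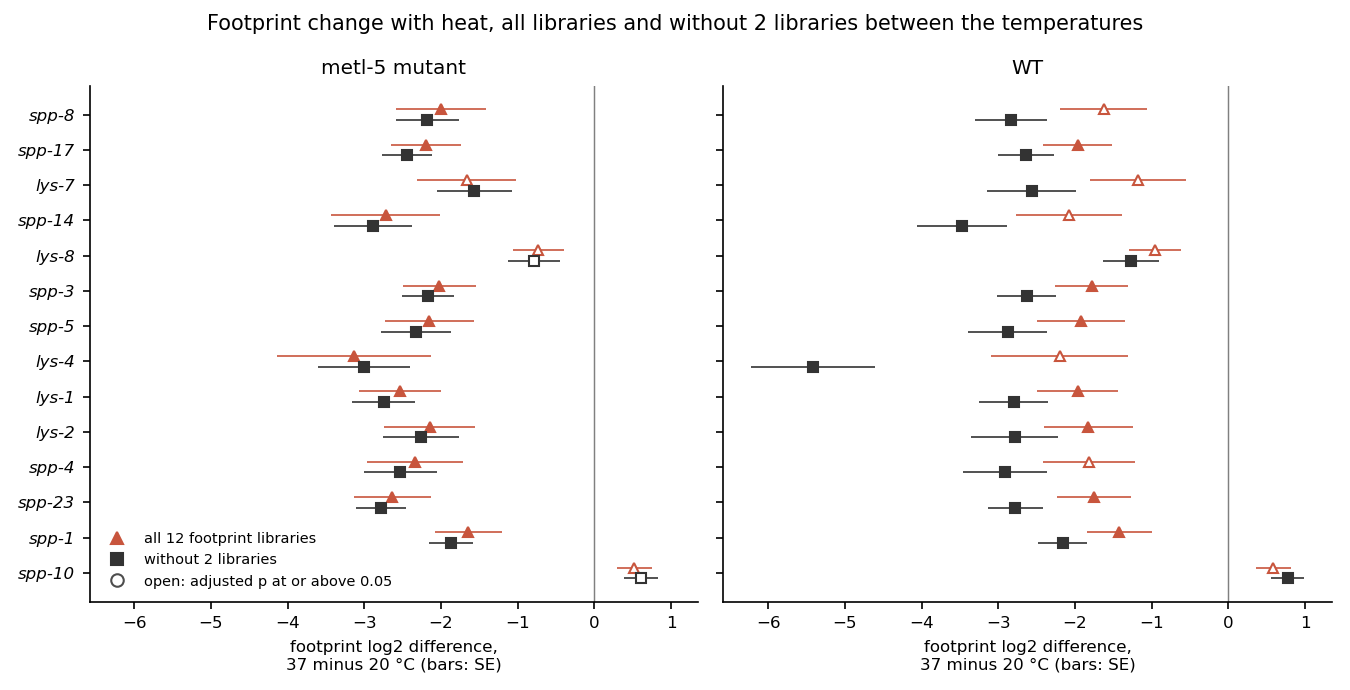
Footprint log2 difference, 37 minus 20 °C, with SE in metl-5 (left) and WT (right). The members are those whose level in every library is plotted above, other than spp-15, which is not drawn. Triangles are from all 12 footprint libraries, and squares are without WT 37 °C replicate 2 and metl-5 20 °C replicate 2. Filled marks passed an adjusted p of 0.05. In WT the 13 members with lower footprints lie further below 0 without the 2 libraries.

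Of the 13 tested members not described above, spp-18 and spp-2 had levels like those of spp-23 or lys-7, and spp-18 is given in full after its values were seen. In metl-5 worms spp-18 mRNA was 12.7, 31.8 and 21.1 CPM at 37 °C, against 24.1, 28.02 and 71.8 CPM at 20 °C. In WT worms it was 14.04, 33.3 and 20.4 CPM at 37 °C, against 30.1, 30.1 and 64.8 CPM at 20 °C. In metl-5 worms spp-18 footprints were 4.94, 20.7 and 7.14 CPM at 37 °C, against 20.96, 31.97 and 57.98 CPM at 20 °C. In WT worms they were 5.22, 28.2 and 5.87 CPM at 37 °C, against 32.7, 32.8 and 58.9 CPM at 20 °C. No 37 °C footprint library of spp-18 reached a 20 °C library of its strain, whereas its mRNA overlapped between the temperatures. The mRNA difference of spp-18 was -0.41 ± 0.44 in metl-5 (adjusted p = 0.546) and -0.47 ± 0.44 in WT (adjusted p = 0.489), and the footprint difference -1.82 ± 0.68 in metl-5 (adjusted p = 0.0633) and -1.72 ± 0.67 in WT (adjusted p = 0.0832). Lower spp-18 footprints passed with the block, at -1.9997 ± 0.60 in metl-5 (adjusted p = 0.0258) and -2.02 ± 0.60 in WT (adjusted p = 0.0336), and without the 2 libraries between the temperatures, at -1.93 ± 0.56 in metl-5 (adjusted p = 0.0206) and -2.99996 ± 0.66 in WT (adjusted p = 0.00475). DESeq2 gave adjusted p-values of 0.0226 in metl-5 and 0.0328 in WT. For spp-2 the footprint difference was -0.26 ± 0.64 in metl-5 (adjusted p = 0.77) and -0.62 ± 0.63 in WT (adjusted p = 0.488), and -1.70 ± 0.61 in WT without the 2 libraries (adjusted p = 0.0436).

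The other members stood at lower levels. Of these, spp-24 rose in mRNA in both strains, by 1.22 in metl-5 and 1.28 in WT. Its mRNA averaged 8.87 CPM in metl-5 at 37 °C, against 5.81 CPM at 20 °C. In metl-5 mRNA spp-28 rose by 1.98 and spp-31 fell by 2.62, and in metl-5 footprints spp-16 fell by 2.40 on the log2 scale. Without 1 library the metl-5 calls were lost in 4 of 6 fits for spp-24 mRNA, 3 of 6 for spp-28, 5 of 6 for spp-31 and 4 of 6 for spp-16, while the WT call of spp-24 held in each. The spp-31 difference was -4.33 without metl-5 37 °C replicate 2 and -1.74 without metl-5 20 °C replicate 3. Its mRNA reached at most 5.59 CPM in any library. For spp-16 an overlapping gene on the other strand, F32D8.7, took part of the mRNA reads. The unstranded count kept 56.7% of the reads on both strands in metl-5 at 37 °C, against 59.6% at 20 °C. In WT it kept 43.5% at 37 °C, against 61.8% at 20 °C. The mRNA difference and footprints per mRNA of spp-16 are read with this limit. The single ilys gene tested, ilys-4, had mRNA differences of 1.06 ± 0.43 in metl-5 and 1.06 ± 0.43 in WT, which did not pass (adjusted p = 0.0969 and 0.0974). The 18 members not tested in mRNA reached at most 1.68 CPM, and the 20 not tested in footprints at most 0.911 CPM. Among them was ilys-3, a digestive lysozyme of pharynx and intestine, with 59 footprint counts and 1 mRNA count over 12 libraries each. No read was counted for lys-9, spp-20 or spp-30 in either assay, which allows up to 3 counts, or 0.0153 CPM of mRNA and 0.0238 CPM of footprints over the 12 libraries (counting error only).

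No difference between metl-5 and WT worms passed the test in any member. In mRNA 0 of 28 members were called at 37 °C and 0 at 20 °C by edgeR, beside 0.03% of all genes at each temperature, and DESeq2 called none. At an unadjusted p below 0.05 there were 0 members at 37 °C and 2 at 20 °C, lys-3 and spp-13, both at low levels. The mRNA log2 differences, metl-5 minus WT, ranged over the members between -1.18 and 0.39 at 37 °C and between -1.77 and 0.78 at 20 °C. In footprints they ranged between -1.61 and 0.23 at 37 °C and between -0.77 and 0.30 at 20 °C, with 0 of 26 members called by edgeR or DESeq2, 0 at an unadjusted p below 0.05, and 0% of all genes called. Footprints per mRNA likewise gave 0 calls, 0 members at an unadjusted p below 0.05 and 0% of all genes. Neither metl-5 nor ZK228.3 was thus called in footprints, although at 20 °C each was lower in every metl-5 library than in any WT library. At 20 °C, WT footprint replicate 2 held 11.4 CPM of cTel55X.1, and metl-5 footprint replicate 2 held 5083 CPM of hsp-70. The absence of footprint calls therefore does not show that the strains are alike at either temperature. The footprint values at 37 °C change with WT 37 °C replicate 2, the library between the temperatures, and 2 of the 3 metl-5 37 °C footprint libraries held metl-5 reads near the WT level. With all libraries 17 of the 26 footprint differences at 37 °C were below 0. Without WT 37 °C replicate 2, 21 of 26 were above 0, the range was -1.22 to 2.21, and 0 were called. The member with the lowest footprint difference at 37 °C, lys-4, had -1.61 ± 1.003 with all libraries and 1.63 ± 0.87 without that library. For spp-8 the strain difference of mRNA was -0.10 ± 0.25 at 37 °C and -0.16 ± 0.25 at 20 °C, and that of footprints -0.41 ± 0.58 at 37 °C, or 0.81 ± 0.48 without WT 37 °C replicate 2, and -0.03 ± 0.55 at 20 °C. For spp-5 footprints it was -0.38 ± 0.56 at 37 °C, or 0.58 ± 0.47 without that library, and -0.15 ± 0.56 at 20 °C. No direction of the strain difference in footprints at 37 °C is therefore read. The heat effect was also compared between the strains. By edgeR 0 members and 0% of all genes differed in mRNA or in footprints, with 0 members at an unadjusted p below 0.05 and 0 by DESeq2. A member called in one strain only is therefore not shown to differ between the strains.

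Markers of the intestine, where many of these effectors are made, were lower in footprints at 37 °C as well. The summed footprint level of the 10 markers was 827 to 2226 CPM in metl-5 at 37 °C, against 2932 to 4886 CPM at 20 °C, and 829 to 2829.9 CPM in WT at 37 °C, against 3231 to 4775 CPM at 20 °C. In footprints 0 of 10 rose and 5 fell in metl-5, and 0 rose and 3 fell in WT, beside 14.7% and 6.93% of all genes that fell, with median differences of -1.51 and -1.27. Without the 2 libraries between the temperatures 7 fell in metl-5 and 8 in WT, with the block 7 and 6, and without all 6 libraries 9 and 6. The counts of these other fits have no share of all genes beside them, so their higher numbers are not read. In mRNA 1 rose and 1 fell in each strain, with medians of 0.03 and 0.04. Those that changed in mRNA were the intermediate filament gene ifb-2, which rose, and the peptide transporter gene pept-1, which fell by 3.09 in metl-5 and 2.21 in WT. The part of the intestine as a whole in the footprint changes of the family was not tested.

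Median log2 differences, 37 minus 20 °C, of the marker lists of other tissues follow. The 6 hypodermis markers had medians of 1.66 in metl-5 and 1.63 in WT for mRNA, and of -1.08 and -1.61 for footprints. The 5 adult markers, which include vitellogenin genes made by the intestine, had medians of 0.83 in metl-5 and 0.82 in WT for mRNA, and of -1.85 and -1.62 for footprints. The 6 body wall muscle markers had medians of 1.11 in metl-5 and 1.15 in WT for mRNA, and of 0.40 and 0.33 for footprints. The 7 tested pharynx markers had medians of 0.98 in metl-5 and 0.70 in WT for mRNA, and of 0.82 and 0.40 for footprints. Of the hypodermis markers the cuticle collagen genes dpy-7 and rol-6 rose in WT mRNA by 3.12 and 1.85. The 8 germline and oocyte markers had medians of -0.12 in metl-5 and -0.36 in WT for mRNA, and of -0.60 and -0.38 for footprints. The neuron markers had medians of 0.06 in metl-5 and 0.04 in WT for mRNA, and of -0.15 and -0.04 for footprints. Among these, the synaptic vesicle gene rab-3 fell in WT mRNA by 1.93.

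Of 30 regulators of innate immunity, genes that act upstream of such effectors, 28 were tested. In mRNA 2 rose and 6 fell in metl-5 and 2 rose and 4 fell in WT, beside rises and falls in 10.8% and 9.16% of all genes in metl-5 and 9.76% and 8.5% in WT. In footprints 3 rose and 6 fell in metl-5 and 2 rose and 3 fell in WT, beside 12.2% and 14.7% of all genes in metl-5 and 9.78% and 6.93% in WT. Without the 2 libraries between the temperatures 3 rose and 6 fell in metl-5 and 3 rose and 10 fell in WT in footprints, with the block 3 rose and 10 fell in metl-5 and 3 rose and 7 fell in WT, and without all 6 libraries 4 rose and 7 fell in metl-5 and 2 rose and 7 fell in WT. The counts of these other fits have no share of all genes beside them, so their higher numbers are not read. In footprints per mRNA 4 rose and 1 fell in metl-5 and 3 rose and 1 fell in WT. Over all genes 11.2% rose and 9.72% fell in metl-5, and 11% rose and 8.3% fell in WT. The share of regulators that rose in mRNA, 7.14% in each strain, was near that over all genes. The transcription factor gene cebp-1, which acts in the surveillance of translation, rose in mRNA by 3.65 in metl-5 and 3.14 in WT. The FOXO gene daf-16 differed in mRNA by -1.73 ± 0.28 in metl-5 (adjusted p = 0.0007) and -1.51 ± 0.27 in WT (adjusted p = 0.00189), and the TFEB orthologue hlh-30 by -1.22 ± 0.27 in metl-5 (adjusted p = 0.00586) and -1.15 ± 0.27 in WT (adjusted p = 0.00938). For elt-2, the GATA factor that drives intestinal genes, the mRNA difference was -0.02 ± 0.55 in metl-5 (adjusted p = 0.984) and 0.13 ± 0.55 in WT (adjusted p = 0.889) and the footprint difference -1.81 ± 0.32 in metl-5 (adjusted p = 0.0116) and -1.37 ± 0.31 in WT (adjusted p = 0.0279). The p38 kinase gene pmk-1 had mRNA differences of -0.67 ± 0.33 in metl-5 (adjusted p = 0.166) and -0.30 ± 0.33 in WT (adjusted p = 0.552) and footprint differences of -0.95 ± 0.33 in metl-5 (adjusted p = 0.0481) and -0.85 ± 0.32 in WT (adjusted p = 0.0752), and in WT the pmk-1 footprint difference was -1.21 ± 0.31 without the 2 libraries between the temperatures (adjusted p = 0.0102).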

How the data were processed

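The authors deposited raw read counts per gene for each of 24 libraries, in the layout of STAR gene counts per the file headers. The submitters' processing notes name STAR and DESeq2 and no versions. The genome build, annotation and protocols were not given in the sources used here. In mRNA 50.5 to 50.9% of stranded counts were sense, so unstranded counts were used, and mRNA reads over genes on opposite strands cannot be told apart. In footprints 99.6 to 99.9% were, and sense counts were used. Reads in no single gene, 19.5 to 27.1% of mRNA and 14.7 to 52.0% of footprint reads, stayed out. Symbols were paired with 19332 of 19669 gene IDs, and 19568 were found in the WBcel235 annotation. No 2 libraries were identical.

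After a filter on low counts (filterByExpr) and TMM scaling, edgeR 4.0.16 (R 4.3.3) ran with all libraries of an assay in 1 fit. DESeq2 1.42.0, other scalings, fits without single libraries and a replicate block were alternatives. The fit was tested on simulated data, which does not check the spread between these libraries. Levels are plain CPM. Members and gene lists were chosen with earlier results of these data known. Values in every library are given for members called in any comparison with a mean of at least 10 CPM over the assay's 12 libraries. From the lists, the 5 called genes with the largest WT mRNA heat change and elt-2, pmk-1, hlh-30 and daf-16 are named, and metl-5 as a check. Other genes named from the counts were chosen after their values were seen.

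Replicate numbers were checked as pairs by correlating deviations from group means across genes. Same-numbered footprint libraries gave 0.157 to 0.601, footprint with mRNA libraries 0.128 to 0.651 and mRNA libraries of the 2 strains 0.146 to 0.514, so these numbers were taken to pair the libraries. The fits reported have no replicate term. Values with the replicate number as a block stand beside some, not all, of the results whose call it changes. The mRNA libraries of the 2 temperatures gave -0.0270 to 0.395 and were not taken as pairs.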

Additional observations from a re-analysis of the deposited data

How the results depend on the processing

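The alternatives changed how many members were called, and no called member changed direction in any of them. Of 52 calls, DESeq2 kept the 51 to which it gave an adjusted p (none for lys-4 footprints), library totals kept 33, and RLE factors, no filter on low counts and the replicate block kept all 52. In the 39 mRNA and footprint calls, a fit of the compared groups alone kept 26. All 33 footprint and footprints-per-mRNA results that were refitted kept their call with unstranded footprint counts and without the 2 libraries between the temperatures. They also kept it without the 6 doubted libraries, a fit that leaves 1 library in each 37 °C footprint group and so no spread there. Over fits without 1 library, 171 of 390 results lost the call. With only the compared groups 5 members passed in WT mRNA and 0 in WT footprints. In WT footprints DESeq2 called 15, the replicate block 17, the fit without 2 libraries 20 and that without 6 libraries 17. In footprints per mRNA, DESeq2 called 8 in WT, library totals 4 in metl-5 and 2 in WT, the replicate block 13 and 14, the fit without 2 libraries 13 and 16, and that without 6 libraries 13 and 12. For heat in mRNA, where the numbers did not pair the samples, the block gave 12 calls in metl-5 and 10 in WT. It ended no call, and the comparisons of the strains stayed at 0. Without 1 library the calls ranged from 3 to 9 in mRNA of either strain, 0 to 15 in metl-5 footprints, 0 to 20 in WT footprints, and 5 to 15 and 3 to 16 in footprints per mRNA. They stayed at 0 in the comparisons of the strains. Summed over all members, the mRNA level with TMM-scaled libraries was 4496 CPM in metl-5 and 4567 CPM in WT at 37 °C, and 3856 CPM in metl-5 at 20 °C. The cause of these differences was not tested. Low counts kept 18 members out of the tests of mRNA and 20 out of those of footprints.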

Other observations

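Family members lie next to each other in the WBcel235 annotation in 8 places, where neighbours are at most 10000 bases apart, and levels differed widely within them. The run on chromosome X (7314969 to 7320354) holds spp-3, spp-2, spp-6, spp-4 and spp-5. In WT worms at 20 °C their mRNA averaged 484, 25.1, 0.245, 83.8 and 1307 CPM. Of this run, spp-3, spp-4 and spp-5 had lower footprints at 37 °C in metl-5, with log2 differences of -2.02 ± 0.48, -2.33 ± 0.62 and -2.15 ± 0.58, whereas spp-2 had -0.26 ± 0.64 (adjusted p = 0.77) and spp-6 was not tested. On chromosome IV (8477180 to 8483621) the neighbours spp-10 and spp-8 both rose in mRNA, while their footprint differences in metl-5 were 0.52 ± 0.23 and -2.01 ± 0.59. On chromosome V (10277904 to 10283544) lys-1 and lys-2 stood at 507 and 168 mRNA CPM in WT at 20 °C, and lys-3 beside them at 1.34 CPM. The run of ilys-3, ilys-2 and ilys-1 on chromosome IV (2464456 to 2471449) held no member with enough counts to be tested. These differences between neighbours were not tested.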
